A study of Mus musculus with 6 samples.

Results

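The Myc and Max network genes are 10 rows of the deposited count table, of 24028 rows in all, chosen by gene symbol: Myc, Mycn, Mycl, Max, Mxd1, Mxd3, Mxd4, Mxi1, Mnt and Mga. They were measured in C2C12 cells, an immortalised mouse myoblast line, in a single clonal line that carries MMH, a doxycycline-inducible, codon-altered transgene. MMH is a chimera with the homeodomains of mouse Dux at its amino-terminal end and the carboxy-terminal portion of human DUX4 behind them. Induced cells (n = 3 cultures) received 2 µg/ml doxycycline, and uninduced cells (n = 3 cultures) of the same line received none. Both groups carry the transgene and grew in 2.6 µg/ml puromycin with 10% fetal bovine serum. Exposure to doxycycline lasted 18 h by the series description but 36 h by the protocol of the samples, and which holds is not known here. Doxycycline without the transgene was not analysed here, and the effects of the drug and of MMH cannot be told apart.

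MYC, MYCN and MYCL are basic helix-loop-helix leucine zipper transcription factors that bind DNA as partners of MAX, mostly at the E-box CACGTG, and raise transcription of genes for ribosome production, nucleotide synthesis and cell growth. MXD1, MXD3, MXD4, MXI1, MNT and MGA also bind MAX and the same sites, where the MXD proteins and MNT recruit SIN3 histone deacetylase corepressors and MGA is part of a Polycomb-type repressor complex. In myoblasts MYC is known for keeping cells proliferating and holding back differentiation, and MYCN is best known from embryonic progenitors, pluripotent cells and neuroblastoma.

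The libraries held 21503384 to 24489531 counts each, and all 10 members had enough counts to be tested. Mycn passed the low-count filter only through the induced libraries, so its difference was required for it to be tested. Induced libraries carried 69800 ± 979 CPM of Zscan4c, a cleavage-stage gene, against 286 ± 7.35 CPM in uninduced libraries (SD, n = 3 each), which separates the groups as labelled. CPM here are relative levels (counts scaled to a fixed library total) on library sizes scaled with the trimmed mean of M values (TMM). Of 7 myoblast markers 6 were tested and 5 fell in induced cells, beside 41.2% of all tested genes. Their summed level was 1180 to 1220 CPM in induced libraries, against 2000 to 2010 CPM in uninduced libraries. Des, at 689 CPM, and Chrna1, at 340 CPM, made up most of it in induced cells. Myod1 averaged 37.1 CPM in induced and 178 CPM in uninduced libraries, and Cdh15 45.6 CPM in induced and 221 CPM in uninduced libraries. Chrna1, the tested marker that was not called, averaged 347 CPM in uninduced libraries (log2 fold change -0.03, edgeR adjusted p = 0.484). Pax7, the marker not tested, had 3, 4 and 4 counts in induced and 1, 0 and 2 counts in uninduced libraries. The summed levels of 4 leukocyte, 3 epithelial and 3 endothelial markers were each at or below 1.48 CPM in every library. The endothelial sum was 0.684 to 1.15 CPM in induced and 0.0646 to 0.164 CPM in uninduced libraries, and its part in the members' values was not tested. Pecam1 made up most of the induced sum, averaging 0.793 CPM in induced and 0.0626 CPM in uninduced libraries. Cdh5 averaged 0.0838 CPM in induced and 0.0635 CPM in uninduced libraries, and Kdr had 3 counts in a single induced library. In bulk RNA a smaller share of cells with a transcript and less transcript per cell cannot be told apart.

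Promoter windows of 9 members were found in RefSeq's GRCm38.p6 table, Myc being the missing entry. These 9 genes had 11 windows from 250 bases before to 50 after a start site, as Mxi1 has several starts. The E-box CACGTG was in 3 of the 11 windows, those of Max, Mxd4 and Mnt, and in 7.15% of the 32851 windows of all genes. The motif is its own reverse complement, so both strands were read at once. The windows of the E-box holders are shown from 250 bases before to 10 after the start, together with that of Mycn, the member with the largest difference, each 5′ to 3′ on the gene's own strand with the E-box in capitals.
Max, chr12:76962239-76962498, minus strand: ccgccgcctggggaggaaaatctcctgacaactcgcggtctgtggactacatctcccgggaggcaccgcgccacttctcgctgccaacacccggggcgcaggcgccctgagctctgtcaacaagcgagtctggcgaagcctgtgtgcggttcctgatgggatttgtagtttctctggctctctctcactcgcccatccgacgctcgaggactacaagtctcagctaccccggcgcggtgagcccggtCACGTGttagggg
Mnt, chr11:74830674-74830933, plus strand: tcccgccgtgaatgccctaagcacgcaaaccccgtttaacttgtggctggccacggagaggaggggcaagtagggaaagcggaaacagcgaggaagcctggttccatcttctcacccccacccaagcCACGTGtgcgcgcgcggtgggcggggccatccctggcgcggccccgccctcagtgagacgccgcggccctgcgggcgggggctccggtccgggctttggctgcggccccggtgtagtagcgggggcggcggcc
Mxd4, chr5:34187701-34187960, minus strand: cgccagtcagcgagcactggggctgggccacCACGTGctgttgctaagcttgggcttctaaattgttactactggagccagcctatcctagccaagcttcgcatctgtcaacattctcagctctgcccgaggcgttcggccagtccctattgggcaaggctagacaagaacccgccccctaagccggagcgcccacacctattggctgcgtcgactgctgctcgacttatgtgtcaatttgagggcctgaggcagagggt
Mycn, chr12:12941827-12942086, minus strand: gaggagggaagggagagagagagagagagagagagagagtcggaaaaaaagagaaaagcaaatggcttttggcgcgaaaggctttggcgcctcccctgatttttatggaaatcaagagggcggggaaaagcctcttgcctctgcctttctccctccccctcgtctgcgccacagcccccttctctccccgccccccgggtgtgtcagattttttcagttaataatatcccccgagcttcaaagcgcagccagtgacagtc
The E-box begins 3 bases before the start in Max, 123 before in Mnt and 219 before in Mxd4. No binding was measured here, so these matches are a description of the sequence.

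Within the network the transcripts went in different directions. Mycn and Mxd1 rose, Mycl fell by well over 2-fold, Mxi1 and Mxd3 fell less, and Myc and Max moved by under 0.2 on the log2 scale. By edgeR's quasi-likelihood test with Benjamini-Hochberg adjustment over 12969 genes, 3 of the 10 members were higher, 4 lower and 3 not called in induced cells at an adjusted p of 0.05. Of all tested genes 41.3% were called higher and 41.2% lower, 82.5% in all, so 7 called members of 10 is a share near that of the table. The CPM of the groups did not overlap for 7 members, against 83.1% of all tested genes. At least 2-fold changes were called for 3 members, 2 higher and 1 lower, against 30.7% of all tested genes.

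**Figure D1:**
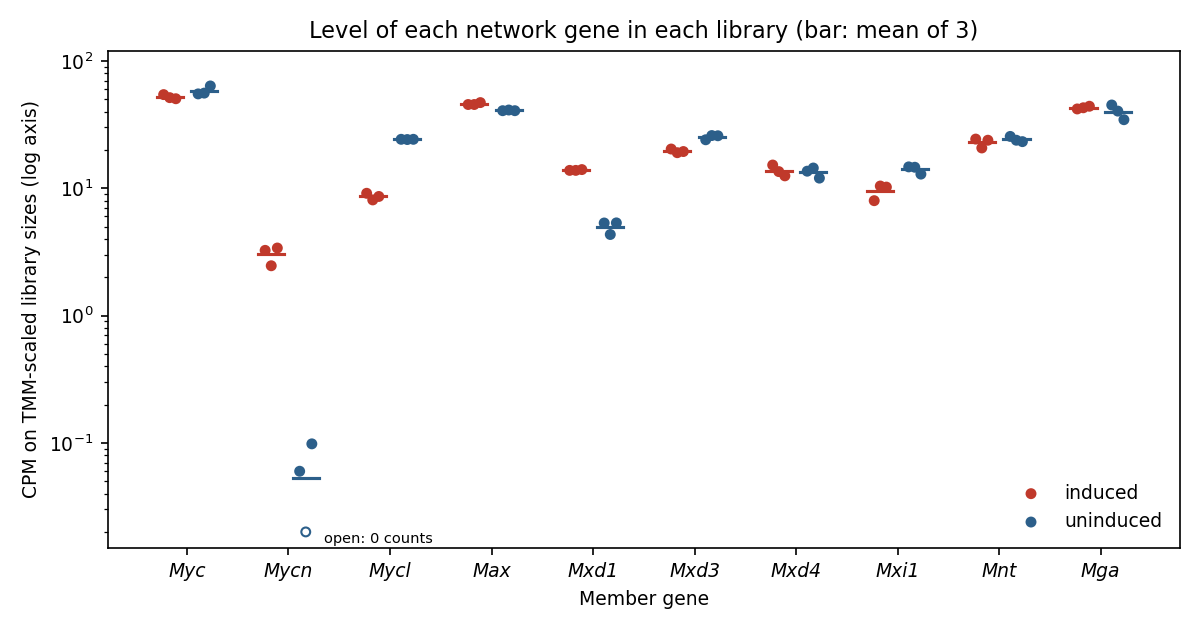
CPM on TMM-scaled library sizes (log axis) of the 10 network genes in the 3 induced (red) and 3 uninduced (blue) libraries, with a bar at each mean and an open symbol, drawn at the foot of the axis, for a library with 0 counts. Mycn and Mxd1 are higher and Mycl is lower in every induced library, while the groups overlap for Mxd4, Mnt and Mga.

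Among the MYC proteins' genes, Myc (Entrez 17869, chromosome 15 at 61985391 to 61990374 of GRCm38) was the most abundant. Its counts were 953, 794 and 878 in induced and 1836, 1726 and 1937 in uninduced libraries. On TMM-scaled sizes these were 54.3, 51.4 and 50.4 CPM in induced and 55.0, 55.8 and 63.5 CPM in uninduced libraries. All 3 induced libraries lay below the uninduced ones, but the gap between the nearest pair was small. The log2 fold change was -0.16 ± 0.06 (SE, edgeR adjusted p = 0.0161). The call was lost without uninduced replicate 3 (-0.10, adjusted p = 0.118), without induced replicate 3 (-0.13, adjusted p = 0.0849) and without induced replicate 2 (-0.15, adjusted p = 0.0508).

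Mycn (Entrez 18109, chromosome 12 at 12936093 to 12941914), the MYC gene of embryonic progenitors, had 57, 38 and 59 counts in induced and 2, 0 and 3 counts in uninduced libraries. This was 3.25, 2.46 and 3.39 CPM in induced and 0.0599, 0 and 0.0983 CPM in uninduced libraries. It was the member nearest to silence in uninduced cells and the least abundant in both groups. The log2 fold change was 5.72 ± 0.41 (SE, edgeR adjusted p = 3.75e-12). With so few uninduced counts the error is wider than this SE, since the ratio of the pooled counts was 57.9 with an exact 95% counting interval of 24.3 to 181. In size this log2 fold change exceeded that of 98.0% of tested genes. Mycn is among these only because its induced libraries passed the low-count filter, so its rank and adjusted p are no separate support.

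Mycl (Entrez 16918, chromosome 4 at 122995652 to 123002485), which encodes L-MYC, went the opposite way. It had 160, 125 and 150 counts in induced and 810, 744 and 737 counts in uninduced libraries. These were 9.12, 8.09 and 8.61 CPM in induced and 24.2, 24.1 and 24.2 CPM in uninduced libraries. Every induced library was below 10 CPM and every uninduced library above 24, with very little spread. The log2 fold change was -1.49 ± 0.08 (SE, edgeR adjusted p = 1.98e-14).

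The make-up of the MYC class can be read without any scaling between libraries, as each gene's share of the class within a library after division by exon length. Myc held 86.2% ± 0.971 of the class in induced and 78.0% ± 1.29 in uninduced libraries (SD, n = 3 each). Mycl held 9.60% ± 0.304 in induced and 21.9% ± 1.34 in uninduced libraries. Mycn held 4.14% ± 0.646 in induced and 0.0571% ± 0.0521 in uninduced libraries. The lowest Mycn share in an induced library was 3.45%, and the highest in an uninduced library was 0.102%. Myc thus remained the main transcript of the class in all 6 libraries. The other mouse MYC genes listed were at or near 0: Bmyc had no count in any library, which allows up to 0.0595 CPM in induced and 0.0316 CPM in uninduced cells at 3 counts over the group, and Mycs had 2 counts in a single induced library.

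Max (Entrez 17187, chromosome 12 at 76937269 to 76962201), the shared partner of every other member, was measured at 45.4, 45.4 and 47.0 CPM in induced and 40.6, 41.1 and 40.6 CPM in uninduced libraries. The spread within each group was small, and the groups did not overlap. The log2 fold change was 0.17 ± 0.05 (SE, edgeR adjusted p = 0.0045), but it was 0.03 with upper-quartile scaling (adjusted p = 0.65), 0.10 without the low-count filter (adjusted p = 0.129) and -0.79 by library size alone. Minus the median of all tested genes under the same scaling, Max was at 0.18 with TMM, with the upper quartile and with library size alone. A scaling shifts every gene nearly alike, so this agreement was fixed in advance and is no separate check.

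Among the MXD genes, Mxd1 (Entrez 17119, chromosome 6 at 86647042 to 86669161), whose product is induced when many cell types stop dividing and differentiate, was the member that rose. It had 243, 214 and 244 counts in induced and 178, 134 and 163 counts in uninduced libraries. On TMM-scaled sizes it was at 13.8, 13.8 and 14.0 CPM in induced and 5.33, 4.33 and 5.34 CPM in uninduced libraries. Even the raw counts were higher in each induced library than in each uninduced one. The log2 fold change was 1.47 ± 0.10 (SE, edgeR adjusted p = 3.95e-12), or 0.51 by library size alone.

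Mxi1 (Entrez 17859, chromosome 19 at 53310518 to 53375810), which encodes a MAX-binding antagonist of MYC, was at 7.98, 10.4 and 10.2 CPM in induced and 14.7, 14.6 and 12.9 CPM in uninduced libraries. Induced replicate 1 was the lowest of all, and the groups did not overlap. The log2 fold change was -0.57 ± 0.10 (SE, edgeR adjusted p = 1.68e-05). Mxd3 (Entrez 17121, chromosome 13 at 55325168 to 55329823), the MXD gene known from S phase of dividing progenitors, was at 20.3, 19.0 and 19.4 CPM in induced and 24.0, 25.9 and 25.8 CPM in uninduced libraries. It was lower in all 3 induced libraries, with a log2 fold change of -0.36 ± 0.07 (SE) with an edgeR adjusted p of 3.74e-05. Of its exon bases 4.4% overlap Prelid1 on the opposite strand, whose reads cannot be told apart from its own there if counting ignored strand. Opposite-strand exons of genes absent from the count table likewise overlap 2.8% of those of Mxi1 and 6.1% of those of Mxd4.

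Mxd4 (Entrez 17122, chromosome 5 at 34173883 to 34187720), which is usually expressed in differentiated cells, was at 15.2, 13.5 and 12.5 CPM in induced and 13.6, 14.4 and 12 CPM in uninduced libraries. The groups overlapped, and the log2 fold change was 0.04 ± 0.09 (SE, edgeR adjusted p = 0.707). Within the MXD class, by length-corrected share, Mxd1 made up 14.9% ± 0.321 in induced and 4.73% ± 0.643 in uninduced libraries (SD, n = 3 each). Mxd3 was the largest part in every library, with 62.4% ± 1.20 in induced and 71.0% ± 1.85 in uninduced libraries. Mxi1 made up 10.6% ± 1.65 in induced and 13.8% ± 1.01 in uninduced libraries. Mxd4 made up 12.2% ± 1.05 in induced and 10.5% ± 0.883 in uninduced libraries.

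The larger repressors of the network showed little difference. Mnt (Entrez 17428, chromosome 11 at 74830920 to 74845725), the most widely expressed antagonist of MYC, was at 24.3, 20.7 and 23.8 CPM in induced and 25.5, 23.8 and 23.2 CPM in uninduced libraries. Its groups overlapped, and its log2 fold change was -0.07 ± 0.07 (SE, edgeR adjusted p = 0.342), but it was called lower with upper-quartile scaling (-0.22, adjusted p = 0.00637), which moves every gene down alike. Mga (Entrez 29808, chromosome 2 at 119897228 to 119969581), a large protein with both a T-box and a MAX-binding domain, was at 41.9, 42.8 and 44.0 CPM in induced and 45.0, 40.3 and 34.5 CPM in uninduced libraries. The uninduced libraries spread over more than the distance between the group means. Its log2 fold change was 0.10 ± 0.08 (SE, edgeR adjusted p = 0.225), and it was called higher without uninduced replicate 1 (0.20, adjusted p = 0.00717).

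A direction here means one against the bulk of the tested genes, whose median log2 fold change was -0.01 with TMM, -0.16 with upper-quartile scaling and -0.97 when only library size was used. TMM factors averaged 0.716 in induced and 1.40 in uninduced libraries. With library size alone 8 members were called lower and 2 higher, beside 76.7% lower and 15.2% higher of all tested genes. Mycn was then at 4.79, Mxd1 at 0.51 and Mycl at -2.45, so these kept their direction. Myc was at -1.12, Mxi1 at -1.53, Mxd3 at -1.33 and Mnt at -1.04. The signs of Max (-0.79), Mga (-0.86) and Mxd4 (-0.92) turned, each called lower. Minus that scaling's median of all tested genes, a step added after the data were seen, Max was at 0.18, Mga at 0.11 and Mxd4 at 0.05. These equal the values with TMM by construction, as a scaling shifts every gene nearly alike.

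**Figure D2:**
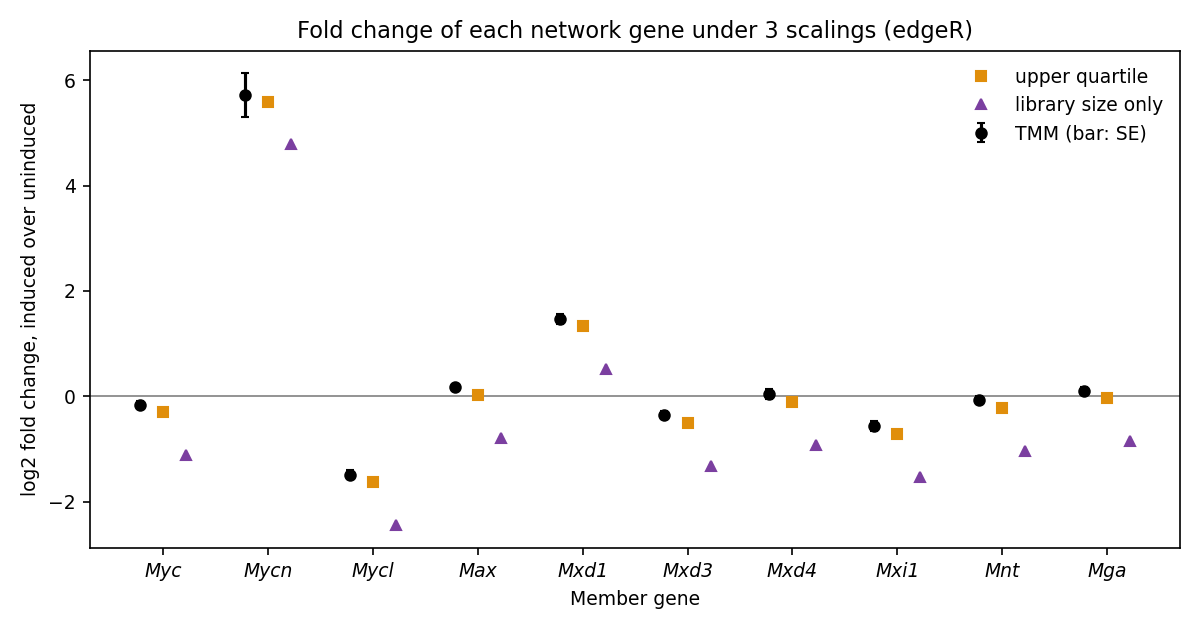
Log2 fold change (induced over uninduced, edgeR) of the 10 network genes with TMM (black, bar: SE), upper-quartile (orange) and library-size-only (purple) scaling. Mycn and Mxd1 are above 0 and Mycl, Mxi1, Mxd3 and Myc below 0 under all 3, whereas Max, Mxd4 and Mga change sign with the shift that a scaling gives to all genes.

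The ratio of a member to Max within a library needs no scaling. It was taken as log2((count + 0.5) / (Max count + 0.5)) and compared for 9 members by exact two-sided permutation tests, in which 3 libraries against 3 cannot give a p below 0.1. The ratio of Mxd1 to Max was -1.71, -1.71 and -1.75 in induced and -2.93, -3.24 and -2.92 in uninduced libraries, a difference of 1.31. The ratio of Mycl to Max was -2.31, -2.48 and -2.45 in induced and -0.74, -0.77 and -0.75 in uninduced libraries, a difference of -1.66. The ratio of Mycn to Max averaged -3.92 ± 0.23 in induced and -9.62 ± 1.5 in uninduced libraries (SD, n = 3 each), where the uninduced value depends on the 0.5 added.

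The ratio of Myc to Max was 0.26, 0.18 and 0.10 in induced and 0.44, 0.44 and 0.64 in uninduced libraries, a difference of -0.33, and every induced library was lower. Relative to Mlx, the MAX-like partner of a sister network, the Myc difference was 0.00. The ratio to Max differed by -0.74 for Mxi1, -0.54 for Mxd3 and -0.25 for Mnt, with no overlap between the groups. Taken to Mlx instead, Mnt turned to 0.08, Mxd4 to 0.20 and Mga to 0.27, and Mxd3 was at -0.20 and Mxi1 at -0.41. For the 7 members whose ratios to Max did not overlap the exact p was 0.1, the smallest possible, and 0.129 after Benjamini-Hochberg adjustment over the 9 ratios. Mxd4 differed by -0.13 (exact p = 0.5, adjusted 0.562) and Mga by -0.06 (exact p = 0.7, adjusted 0.7), both with overlapping groups.

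**Figure D3:**
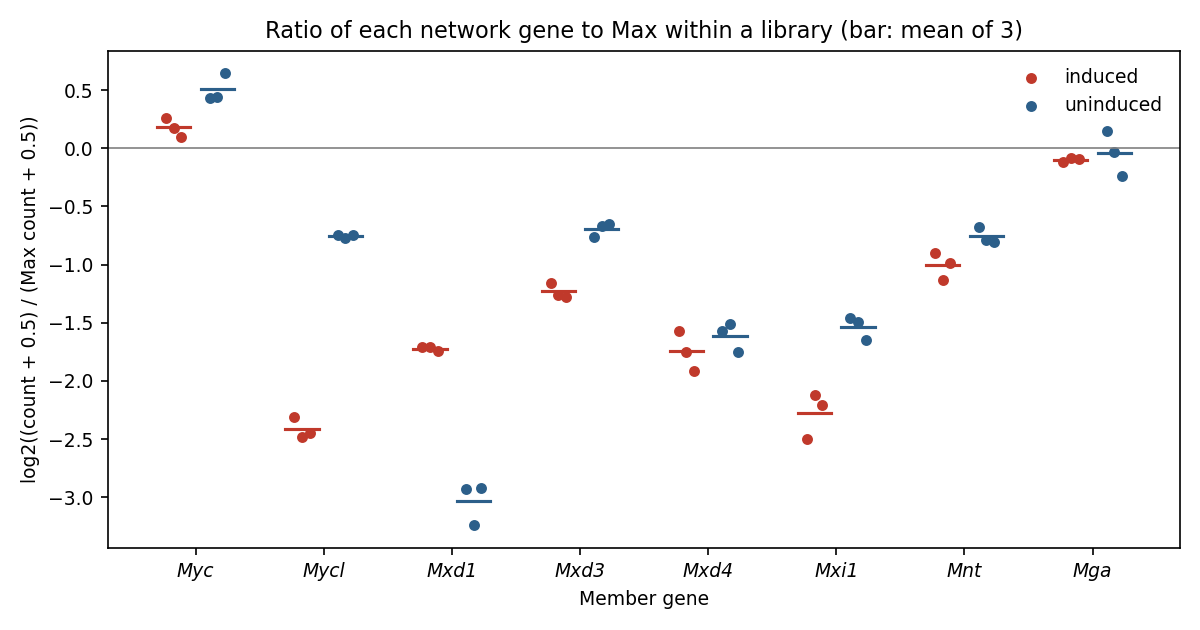
Log2 ratio of each network gene to Max within each library, for 3 induced (red) and 3 uninduced (blue) libraries, with a bar at each mean. Mycn, which averaged -3.92 in induced and -9.62 in uninduced libraries, is left out of the axis range. Mxd1 is higher and Mycl, Mxi1, Mxd3, Mnt and Myc are lower against Max in every induced library.

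Levels of different genes were compared only per length, as CPM per kilobase of annotated exon. In induced cells the order was Myc (19.1 ± 0.750), Max (12.8 ± 0.259), Mxd3 (8.26 ± 0.299), Mnt (4.96 ± 0.421), Mga (2.80 ± 0.0697), Mycl (2.13 ± 0.128), Mxd1 (1.97 ± 0.0127), Mxd4 (1.62 ± 0.165), Mxi1 (1.40 ± 0.196) and Mycn (0.920 ± 0.152). In uninduced cells it was Myc (21.4 ± 1.73), Max (11.3 ± 0.0805), Mxd3 (10.6 ± 0.459), Mycl (5.98 ± 0.0217), Mnt (5.23 ± 0.249), Mga (2.60 ± 0.343), Mxi1 (2.06 ± 0.145), Mxd4 (1.57 ± 0.142), Mxd1 (0.707 ± 0.0817) and Mycn (0.0160 ± 0.015), all CPM per kilobase with SD over 3 libraries. Neighbours in the order did not overlap in range, except Mxd4 and Mxi1 in induced cells. With the longest annotated transcript as the length, a choice made after seeing the data, several places changed. In induced cells Max (23.7) then stood above Myc (22.3), and Mxd1 (2.98) and Mxd4 (2.96) above Mycl (2.46). In uninduced cells Mxd4 (2.88) then stood above Mga (2.87) and Mxi1 (2.80). With either length Mxd3 took the third place and Mycn the last in both groups, and Mycl took the fourth in uninduced cells. Summed per kilobase, the MYC class stood to the MXD, MNT and MGA class at 1.08, 1.06 and 1.03 in induced and 1.14, 1.15 and 1.32 in uninduced libraries. With the longest transcript as the length these were 0.972, 0.954 and 0.930 in induced and 1.03, 1.03 and 1.19 in uninduced libraries, so the side of 1 depends on the length, while the induced libraries were lower with both. To the MXD genes alone, per kilobase of exon, the MYC class stood at 1.72, 1.66 and 1.65 in induced and 1.79, 1.72 and 1.96 in uninduced libraries, and the groups met at 1.72. With the longest transcript as the length these were 1.39, 1.34 and 1.34 in induced and 1.47, 1.41 and 1.61 in uninduced libraries. The groups did not meet there, so their separation depends on the length.

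The genes with the profile nearest to Myc over the 6 libraries, by root mean square difference of centred log2(CPM + 0.5) among 11348 genes, were Ndufb6 (0.0308), Ddah2 (0.0357) and Sh3bp1 (0.0370). Their log2 fold changes were -0.14, -0.17 and -0.15. With 2 groups of libraries, any gene with a like difference will have a like profile.

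The MLX arm, a sister network in which MLX pairs with the glucose-sensing factors MLXIP and MLXIPL, was listed with the targets Txnip and Arrdc4. Mlxip was at 62.9, 64.9 and 57.9 CPM in induced and 27.3, 25.1 and 24.3 CPM in uninduced libraries, a log2 fold change of 1.27 ± 0.06 (SE) with an edgeR adjusted p of 1.42e-15. Txnip, which encodes a thioredoxin-binding inhibitor of glucose uptake, was at 8.72, 10.8 and 8.84 CPM in induced and 2.54, 3.04 and 2.56 CPM in uninduced libraries, a log2 fold change of 1.80 ± 0.13. Arrdc4, a related arrestin gene, had 142 counts in induced and 6 in uninduced libraries, a ratio of 44.5 with an exact 95% counting interval of 20.0 to 123. Like Mycn, it passed the low-count filter only through the induced libraries, so that it had to differ to be tested. Mlxip and Txnip kept their direction with library size alone, at 0.31 and 0.83 on the log2 scale.

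Mlx itself was at 19.8, 22.6 and 21.3 CPM in induced and 23.8, 22.8 and 24.5 CPM in uninduced libraries. Its log2 fold change was -0.16 ± 0.07 (SE, edgeR adjusted p = 0.0366), a call lost in 8 of 17 alternatives. These were the scaling of DESeq2 used in edgeR (adjusted p = 0.0617), DESeq2 itself, an adjusted p of 0.01, the 1.5-fold threshold, and leaving out induced replicate 1 or 3 or uninduced replicate 1 or 3. Mlxipl was not tested by edgeR at this filter. It had 24 counts in induced and 1 in uninduced libraries, a ratio of 45.1 with a counting interval of 7.36 to 1860.

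Transcripts of proteins that work with MYC on chromatin were higher in 10 of 16 cases, lower in 3 and not called in 3, with a median log2 fold change of 0.40 against -0.01 over all tested genes, of which 41.3% were higher and 41.2% lower. With library size alone 4 were higher and 11 lower, beside 15.2% and 76.7% of all tested genes, and the median was -0.56 beside -0.97. Cdk9, the kinase of the elongation factor P-TEFb, was at 188, 170 and 178 CPM in induced and 54.2, 61.7 and 61.1 CPM in uninduced libraries, a log2 fold change of 1.6 ± 0.05 (SE) with an edgeR adjusted p of 2.2e-18. Its cyclin partner Ccnt1 was at 50.3 ± 4.08 CPM in induced and 17.4 ± 2.21 CPM in uninduced libraries (SD, n = 3 each), a log2 fold change of 1.53. Both kept their direction with library size alone, at 0.64 and 0.56. Smarcb1, a SWI/SNF subunit, and Ruvbl1, an ATPase of the TIP60 complex, fell by 0.49 and 0.43 on the log2 scale.

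Among genes that set the stability of MYC protein 6 of 12 were higher, 5 lower and 1 not called, with a median of 0.11. The shares are near the 41.3% higher and 41.2% lower of all tested genes. The upper quartile gave 3 higher and 5 lower, beside 4593 higher and 6191 lower of all 12969 tested genes. Library size alone gave 1 higher and 11 lower, beside 15.2% higher and 76.7% lower of all tested genes. Fbxw7, the ubiquitin ligase subunit that marks MYC for destruction, was at 71.2, 75.5 and 76.7 CPM in induced and 20.4, 19.6 and 18.3 CPM in uninduced libraries. The groups were far apart, with a log2 fold change of 1.94 ± 0.06 (SE) with an edgeR adjusted p of 1.4e-19, or 0.97 with library size alone. Usp36, a deubiquitinase that stabilises MYC, had a log2 fold change of 0.81 but was at -0.15 with library size alone. Cip2a, an inhibitor of the phosphatase that destabilises MYC, fell by 0.91 and the kinase gene Plk1 by 0.45 on the log2 scale.

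The SIN3 corepressor, through which MXD proteins and MNT act, had 11 of 13 tested genes higher, 1 lower and 1 not called, out of 14 listed, with a median of 0.87. This is 84.6% higher and 7.69% lower, beside 41.3% and 41.2% of all tested genes. With library size alone 4 were higher and 6 lower, beside 15.2% and 76.7% of all tested genes, and the median was -0.09 beside -0.97. Arid4a, a subunit that binds the retinoblastoma protein, was at 58.0, 63.3 and 60.5 CPM in induced and 15.8, 14.4 and 13.5 CPM in uninduced libraries, a log2 fold change of 2.05 ± 0.07 (SE) with an edgeR adjusted p of 4.82e-19. Ing2, which reads methylated histone H3, rose to 29.6 ± 2.03 CPM in induced cells, against 10.6 ± 0.575 CPM in uninduced cells (SD, n = 3 each). With library size alone Arid4a was at 1.09 and Ing2 at 0.52 on the log2 scale. Suds3 was the member that fell, by 0.21.

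Of the partners of MGA in its Polycomb-type complex 4 of 9 were higher, 4 lower and 1 not called, with a median of -0.15. At 44.4% in each direction this is near the 41.3% higher and 41.2% lower of all tested genes. By the upper quartile there were 4 higher and 5 lower, beside 4593 higher and 6191 lower of all 12969 tested genes. By library size alone there were 2 higher and 7 lower, beside 15.2% higher and 76.7% lower of all tested genes. Tfdp1, the dimer partner of E2F factors, fell to 54.8, 51.4 and 56.4 CPM in induced libraries, against 151, 150 and 150 CPM in uninduced libraries, a log2 fold change of -1.47 ± 0.05 (SE) with an edgeR adjusted p of 4.06e-19. E2f6, the repressive E2F of this complex, fell by 0.78. Rybp was at 133, 129 and 131 CPM in induced and 44.0, 43.8 and 43.2 CPM in uninduced libraries, a log2 fold change of 1.59 ± 0.05, and the ubiquitin ligase gene Rnf2 rose by 1.12 on the log2 scale. With library size alone Rybp was at 0.62 and Rnf2 at 0.16.

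Of the genes that MYC is known to activate 24 of 46 were higher, 14 lower and 8 not called, with a median of 0.13. This is 52.2% higher and 30.4% lower, beside 41.3% and 41.2% of all tested genes. Tert, among the 14 lower, had 5, 9 and 6 counts in induced and 23, 24 and 31 counts in uninduced libraries. It passed the low-count filter only through the uninduced libraries. The filter reads library sizes before TMM scaling, so Tert had to be lower on those sizes to be tested, but not on TMM-scaled ones. Krt8, which passed in the same way, had a log2 fold change of -0.14 with TMM (edgeR adjusted p = 0.739). Calls were 18 higher against 21 lower by the upper quartile, beside 4593 higher and 6191 lower of all 12969 tested genes. By library size alone they were 3 higher against 39 lower, beside 15.2% higher and 76.7% lower of all tested genes. The list's median was then -0.83, beside -0.97 over all tested genes. Nop56, a component of box C/D small nucleolar ribonucleoproteins, was at 390, 365 and 384 CPM in induced and 143, 144 and 153 CPM in uninduced libraries, a log2 fold change of 1.37 ± 0.04 (SE) with an edgeR adjusted p of 3.64e-19. Ccnd2, encoding cyclin D2, rose to 3.25 ± 0.559 CPM in induced cells, against 0.923 ± 0.166 CPM in uninduced cells (SD, n = 3 each). Both kept their direction with library size alone, at 0.41 and 0.85 on the log2 scale. Tfap4, which encodes the transcription factor AP4, was at 3.53, 3.82 and 3.85 CPM in induced and 10.0, 10.8 and 12.2 CPM in uninduced libraries, a log2 fold change of -1.56 ± 0.12. The spermidine synthase gene Srm fell by 1.3 on the log2 scale.

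Among 8 genes reported as repressed by MYC, 7 were tested, of which 4 were higher, 1 lower and 2 not called, with a median of 0.34. This is 57.1% higher and 14.3% lower, beside 41.3% and 41.2% of all tested genes. Clu, among the 4 higher, had 31, 17 and 19 counts in induced and 5, 8 and 2 counts in uninduced libraries. Like Mycn, it passed the low-count filter only through the induced libraries, so its call is no support for that share. Scaled to the upper quartile, 4 of the 7 rose and 3 fell, beside 4593 higher and 6191 lower of all 12969 tested genes. With library size alone 2 rose and 5 fell, beside 15.2% higher and 76.7% lower of all tested genes. Ndrg1, named for its repression by N-MYC, was at 211, 202 and 207 CPM in induced and 69.5, 68.0 and 74.5 CPM in uninduced libraries, a log2 fold change of 1.55 ± 0.04 (SE) with an edgeR adjusted p of 7.59e-20, or 0.58 with library size alone. Ndrg2 had a log2 fold change of 0.76 but was at -0.21 with library size alone. Thbs1, a matrix glycoprotein gene, fell to 578 ± 10.9 CPM in induced cells, against 1230 ± 73.4 CPM in uninduced cells (SD, n = 3 each).

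**Figure D4:**
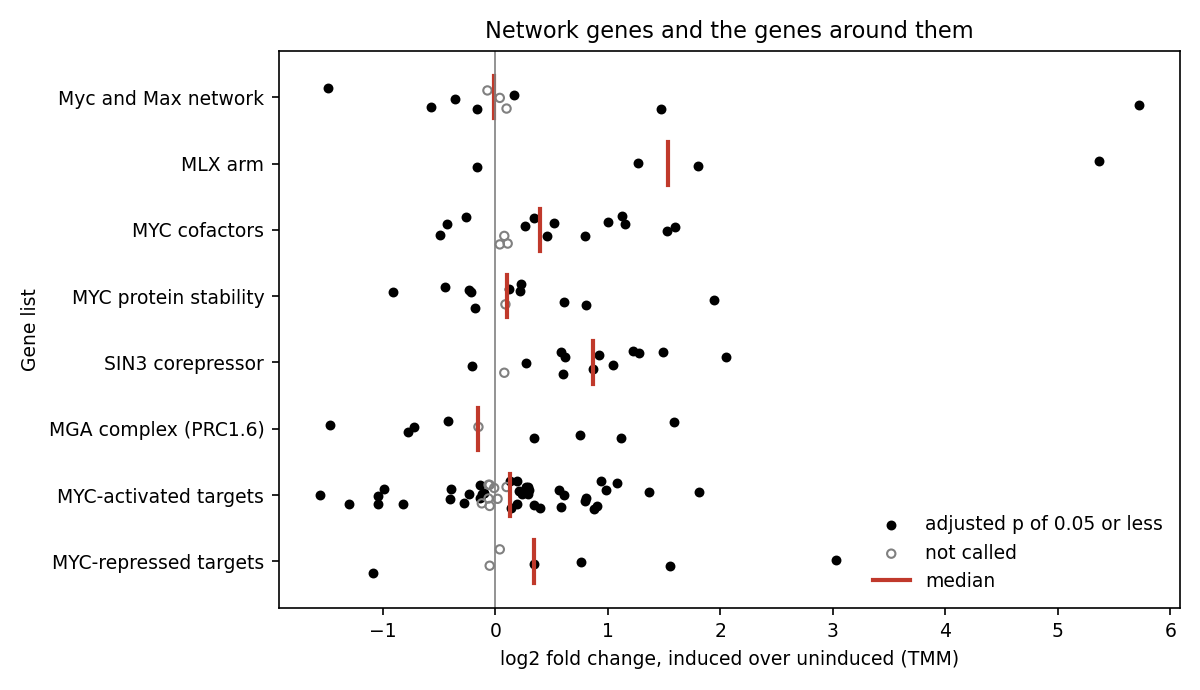
Log2 fold change (induced over uninduced, TMM) of every tested gene in the network and in 7 lists of genes around it, with a red bar at each list's median, filled points for an edgeR adjusted p of 0.05 or less and open points for genes not called. The network spans -1.49 to 5.72 with its median near 0, and the SIN3 corepressor genes lie mostly above 0 with this scaling.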

How the data were processed

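TruSeq libraries of polyadenylated RNA from 6 cultures were pooled for sequencing, per the labels' protocols. The submitters' processing notes name TopHat2 2.0.12, Bowtie2 2.2.3 and the mm10 build. The table that the authors deposited holds raw counts per Entrez gene. Its read counter, strand setting and gene annotation: not given in the sources used here. Groups were taken from the titles.

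Counts were analysed in R 4.3.3 with edgeR 4.0.16 (filterByExpr, TMM, glmQLFit with robust=TRUE, glmQLFTest, group as the only term), adjusted by Benjamini-Hochberg over 12969 tested genes of 24028. SE was derived from each log2 fold change and its F statistic (their quotient, with F under a root). No replicate pair matched within counting noise (chi-square per degree of freedom 2.40 to 6.77). The series description calls the replicates separate cultures of a clone. Exon lengths and gene positions came from GENCODE M21 (GRCm38, the assembly of mm10). Intervals and limits of 3 counts cover counting error only.

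Besides the 10 members, from each pathway list the 2 largest rises and falls were named among called genes with a mean of at least 1 CPM and no overlap between groups, and the MLX arm and other MYC genes in full. For Myc, the 3 genes of nearest profile were named. The members and lists were chosen with earlier results of these data known. Alternatives were DESeq2 1.42.0, limma-voom (limma 3.58.1), other scalings, filters and thresholds, a replicate block and each library left out.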

Additional observations from a re-analysis of the deposited data

How the results depend on the processing

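The log2 fold changes of Mycn, Mycl and Mxd1 kept their direction and call under all 17 alternatives, ranging over 4.79 to 6.38, -2.45 to -1.44 and 0.51 to 1.52. Wherever the low-count filter was used, Mycn had to differ to be tested, so its calls there are no separate support. Mxi1 ranged from -1.53 to -0.45 and Mxd3 from -1.33 to -0.34, with the call lost against a 1.5-fold threshold (glmTreat). Members called lower numbered 8 with library size only and 1 against 1.5-fold, and all genes called numbered 1977 higher and 9949 lower with library size only and 3039 higher and 2510 lower against 1.5-fold. Leaving out a library gave 3 to 4 members higher and 3 to 4 lower. Reversed values were Max at -0.79, Mxd4 at -0.92 and Mga at -0.86 with library size only, Mxd4 at -0.11 and Mga at -0.0422 with upper-quartile scaling, and Mxd4 at -0.0336 without the filter, and -0.0423 to 0.109 over the libraries left out in turn, below 0 without induced replicate 1 or uninduced replicate 3. Library size only and upper-quartile scaling shift every gene by construction, and minus the median of all genes Max, Mxd4 and Mga were at 0.18, 0.05 and 0.11 with TMM and with both. The cause of the other changes was not tested. Taken to Mlx in place of Max, the ratio difference was 0.0041 for Myc and 0.0823 for Mnt. Of 272 recounts of the gene lists 30 moved by over 1.5 times, or to or from 0. The 272 include the list of other MYC genes, which had 0 genes tested in the main run and 0 calls throughout. The Myc call also went at an adjusted p of 0.01, and the calls of Myc and Max both went against the 1.5-fold threshold. With the replicate block 3 members were higher and 4 lower, and 5411 genes higher and 5402 lower. Deviations of libraries with the same number correlated at only 0.06, 0.02 and 0.03, so the number was not taken as a pairing, although each library correlated best with its own number, a hint from the data and not the design. Depth limits Mycn, Mlxipl and Arrdc4, with 5, 1 and 6 uninduced counts.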
